A study of Mus musculus with 6 samples.

Results

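The transcripts described here encode 9 proteins of the spectrin-based skeleton under the red cell membrane, namely Sptb, Ank1, Epb41, Epb42, Add1, Add2, Dmtn, Tmod1 and Mpp1. They were taken by gene symbol from the 27179 genes of the count files, and all 9 were found and passed the filter on low counts. RNA was measured in purified erythrocytes of BalB/c males, with 3 mice of genotype Nxf1+/C587R, which carry 1 copy of the C587R allele, and 3 littermates of genotype Nxf1+/+. The protein NXF1 carries mature messenger RNA out of the nucleus. Each library came from 1 animal, and each of 3 batch numbers in the labels was shared by 1 mutant and 1 wild-type library. The age of the mice was not given in the sources used here. The comparison asked how the RNA of circulating red cells differed between the genotypes.

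The red cell skeleton is a flat lattice of spectrin tetramers, which lets the cell deform in small vessels and recover its shape. Ankyrin ties beta spectrin to the anion exchanger band 3, with protein 4.2 bound to both. At the nodes of the lattice, short actin filaments are joined to spectrin by protein 4.1, adducin and dematin and are closed at one end by tropomodulin. Protein 4.1 and p55 link these nodes to glycophorin C. Inherited loss of several of these proteins gives spherocytosis or elliptocytosis. Circulating red cells have no nucleus, and their RNA is what remains from the last stages of maturation, most of it in reticulocytes.

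Total counts ran from 14636739 to 15790336 per library, and globin transcripts took 88.1% to 89.3% of them. A count of 0 would have allowed up to 3 counts, or 0.190 to 0.205 CPM (counts per 1000000 of the total count). Red cell markers were present in all libraries, with none of the 12 matched genes of that list at 0. Nxf1 had 9, 7 and 11 counts in mutant libraries 1, 2 and 3 and 15, 10 and 20 in wild-type libraries 1, 2 and 3, and a count does not distinguish the alleles. Libraries stood apart in RNA of other cells. A list of 25 hepatocyte genes summed to 2044 to 4461 counts in the mutants and to 14 to 108 in wild type, where 20 to 22 of the 25 genes were at 0 in each library. The list was led by Alb and Trf. Alb had 490, 1136 and 800 counts in the mutants, against 0, 1 and 0 in wild type, and Trf 189, 427 and 242 against 2, 18 and 12. A list of 12 exocrine pancreas genes summed to 365 counts in wild-type library 1, led by Cela2a and Pnlip with 70 and 56, and to 1 or 2 in each other library. The 12 leukocyte markers summed to 1031 to 1768 counts in the mutants, against 1641 to 2038 in wild type, led by S100a9 and S100a8, and 12 platelet markers, led by Itga2b and Ppbp, to 83 to 228 and 177 to 348. None of the leukocyte or platelet markers was at 0 in any library. The part of these cells in the results below was not tested, other than by taking the hepatocyte and pancreas genes out of the total for the summed share.

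Epb41, which encodes protein 4.1, was by far the most abundant of the 9 transcripts. The gene (Entrez gene 269587) lies on chromosome 4, 131923413 to 132075346 (RefSeq, GRCm38.p6, the assembly called mm10). It had 9034, 11078 and 12714 counts in the mutants, against 13478, 12610 and 16349 in wild type. These counts placed it between rank 22 and rank 24 of all genes with a symbol in every library. Per length, its level was 119 ± 21.6 counts per kilobase per 1000000 counts (SD over the 6 libraries). Mpp1, the palmitoylated membrane protein p55 (Entrez gene 17524, chromosome X, 75109733 to 75131016), came next with 9.06 ± 3.85, so that Epb41 was 13.2-fold higher in the mean. The range of Epb41 over libraries, 86.0 to 149.6, did not touch that of Mpp1, 4.67 to 15.05.

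The other transcripts followed at lower levels, which were compared per length only. The deposited gene lengths used for this were shorter than the exons in GENCODE M21 for all 9 genes (6923 against 15942 bases for Epb41). Add1, the widely expressed alpha subunit of adducin (Entrez gene 11518, chromosome 5, 34573664 to 34632308), had 2.77 ± 0.816 counts per kilobase per 1000000. Epb42, protein 4.2 (Entrez gene 13828, chromosome 2, 121017891 to 121036877), had 1.55 ± 0.684, and Sptb, beta spectrin (Entrez gene 20741, chromosome 12, 76580488 to 76710547), had 1.16 ± 0.445. Tmod1, tropomodulin (Entrez gene 21916, chromosome 4, 46038940 to 46116032), had 0.788 ± 0.308. Ank1, erythroid ankyrin (Entrez gene 11733, chromosome 8, 22974836 to 23150501), had 0.518 ± 0.171. Add2, the beta subunit of adducin (Entrez gene 11519, chromosome 6, 86028681 to 86124409), had 0.499 ± 0.0714, and Dmtn, dematin (Entrez gene 13829, chromosome 14, 70602184 to 70636048), had 0.378 ± 0.168.

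From Add1 downward the ranges of neighbours in this order overlapped. Within libraries Add1 was above Epb42, Sptb above Tmod1 and Tmod1 above Ank1 in 6 of 6, while Epb42 was above Sptb in 4, Ank1 above Add2 in 2 and Add2 above Dmtn in 5 of 6. The order of Epb42 and Sptb, and that of Ank1, Add2 and Dmtn, therefore varied between libraries. Counting error and differences between animals were not told apart in this order. Band 3 (Slc4a1), the membrane anchor of ankyrin, had 22.1 ± 6.81 counts per kilobase per 1000000 (SD over the 6 libraries), below Epb41 and above Mpp1 in the mean.

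**Figure D1:**
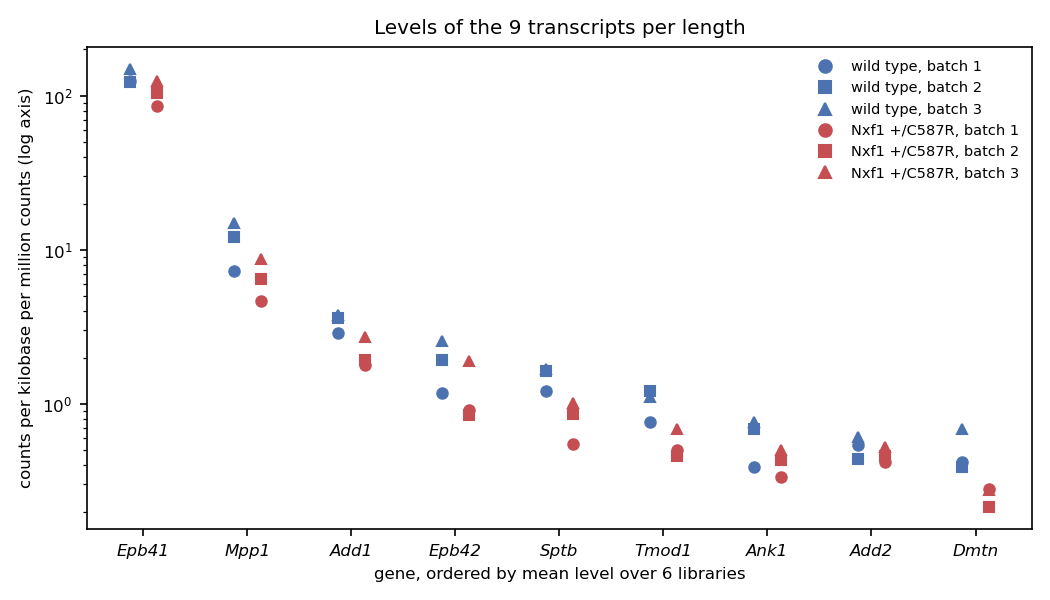
Level of each transcript in each library, in counts per kilobase per 1000000 counts on a log axis, with wild type in blue, Nxf1+/C587R in red and a symbol per batch. Epb41 lies between 86.0 and 149.6 in all 6 libraries, above the other 8, and from Add1 down the ranges of neighbouring genes overlap.

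Overlapping annotation left some of these counts uncertain. The library kit is not stated to keep strand, so reads of a gene and of its antisense partner cannot be told apart. In GENCODE M21, 1287 exonic bases of Tmod1 are shared with Tstd2 on the opposite strand, and Tstd2 had 10 counts over the 6 libraries. Exons of Ank1 share 862 bases with Gm15816, those of Add2 share 356 with Gm44089, and those of Epb41 share 142 and 91 with Gm10300 and Gm13063, all on the opposite strand. Mpp1 shares 45 bases with Dkc1 and Sptb 1 base with Plekhg3 on the opposite strand, and Add1 shares 63 with Mir7036b on the same strand. No exon of another gene overlapped Epb42 or Dmtn.

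Upstream sequence is shown for the most abundant transcripts, Epb41 and Mpp1, and for Sptb, which was called with total counts but not with TMM scaling, as described below. Each is the 250 bases before a RefSeq start (GRCm38.p6), 5′ to 3′ on the strand of the gene, which is the minus strand for all of them. Capitals mark AGATAA (the core letters of a GATA site) or CCGCCC (a GC box) on either strand. The windows are chr4:132075314-132075563 for Epb41, chrX:75131017-75131266 for Mpp1 and chr12:76710548-76710797 for Sptb.
Epb41: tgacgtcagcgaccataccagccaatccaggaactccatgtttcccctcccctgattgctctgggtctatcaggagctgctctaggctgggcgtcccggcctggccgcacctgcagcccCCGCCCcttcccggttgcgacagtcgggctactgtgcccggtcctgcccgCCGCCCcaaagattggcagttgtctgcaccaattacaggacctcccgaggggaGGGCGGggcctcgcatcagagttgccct
Mpp1: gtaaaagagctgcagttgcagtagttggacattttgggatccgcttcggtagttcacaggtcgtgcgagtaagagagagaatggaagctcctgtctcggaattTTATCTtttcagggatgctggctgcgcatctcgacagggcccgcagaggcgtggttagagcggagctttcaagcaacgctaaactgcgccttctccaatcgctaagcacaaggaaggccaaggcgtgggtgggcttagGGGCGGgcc
Sptb: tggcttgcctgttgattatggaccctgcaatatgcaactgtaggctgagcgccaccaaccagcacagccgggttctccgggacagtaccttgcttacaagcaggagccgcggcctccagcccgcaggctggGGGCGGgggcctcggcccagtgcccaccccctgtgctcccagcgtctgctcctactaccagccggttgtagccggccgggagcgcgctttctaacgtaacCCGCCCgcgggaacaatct
In these windows AGATAA was found once, 147 bases before the Mpp1 start, and CCGCCC began 131, 81 and 28 bases before the Epb41 start, 9 before that of Mpp1 and 119 and 19 before that of Sptb. The Epb41 window overlaps the gene as given above, which ends at 132075346. Its match 28 bases before the start used here thus lies within the gene. The table of promoters held 9 windows for 7 of the 9 genes, 3 of them for different starts of Epb41, and none for Ank1 and Dmtn. CCGCCC was in 7 of the 9 windows and in 32.7% of all 32851 windows. AGATAA was in 2 of 9, those of Mpp1 and Epb42, against 9.99% of all windows. TGATAA and CCACACCC were in 0 of 9, against 7.94% and 3.20%. All motifs were searched on both strands, and none overlapped another in the printed windows. The members' windows held 43.2% to 73.6% G and C. A match is a description of the letters and not a bound site, and gene-level counts cannot tell the starts apart.

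None of the 9 transcripts was called between mutant and wild type. With TMM scaling (library totals multiplied by factors that align the bulk of genes) edgeR's quasi-likelihood test gave adjusted p of 0.278 to 0.949, and 0 of 9 had an unadjusted p under 0.05. DESeq2 called 0 of 9 as well (adjusted p 0.666 to 0.998), where 6.27% of genes were higher and 0.39% lower. A gene was called at a Benjamini-Hochberg adjusted p under 0.05 over the 2823 genes tested, of which 5.99% were higher and 1.06% lower in the mutants. Log2 fold changes ran from −0.44 to 0.33 with a median of −0.19, beside −0.06 for all genes tested. They were below 0 for 7 of the 9, Epb41 and Add2 being the exceptions, and for 54.8% of all genes tested. Batches differed: with TMM scaling every transcript but Sptb was higher in the mutant of batch 1, while in batch 2 only Epb41 and Add2 were, and in batch 3 only Add2. Fewer red cells with RNA and less RNA per cell cannot be told apart in such bulk samples.

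Beta spectrin had the smallest p. Sptb had 87, 137 and 155 counts in mutant libraries 1, 2 and 3 and 195, 251 and 277 in wild-type libraries 1, 2 and 3. Every wild-type count was above every mutant count, and the lowest wild-type value was that of batch 1. In CPM of total counts Sptb also separated, as did 31.5% of all genes tested, lower in the mutants. After TMM scaling its level was 9.84 ± 1.78 CPM in the mutants, against 13.3 ± 2.69 in wild type (SD, n = 3 each), and these groups overlapped. The log2 fold change was −0.43 (SE 0.21, 95% interval −0.86 to 0.01; edgeR adjusted p = 0.278). Leaving out a library or batch gave −0.58 to −0.24, the smallest size being that without mutant library 1 (edgeR adjusted p = 0.769). It was lower in the mutant in all 3 batches, by log2 differences of −0.36, −0.41 and −0.51.

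Ankyrin and protein 4.2, which attach the lattice to band 3, differed by less than their spread. Ank1 had 44, 57 and 63 counts in the mutants, against 52, 87 and 104 in wild type, and Epb42 had 48, 45 and 96 against 63, 98 and 141. In counts, wild-type library 1 was within the mutant range for both genes. After TMM scaling it was below every mutant library, at 2.73 CPM against 4.04 to 4.80 for Ank1 and 3.30 against 3.79 to 6.20 for Epb42. Leaving out a library or batch gave log2 fold changes of −0.31 to 0.22 for Ank1 and −0.45 to 0.06 for Epb42. The lowest value of each was that without wild-type library 1. With TMM scaling Ank1 was at 4.30 ± 0.430 and 4.46 ± 1.50 CPM (SD, n = 3 each), a log2 fold change of −0.05 (SE 0.26, 95% interval −0.60 to 0.50; edgeR adjusted p = 0.949). Epb42 was at 4.80 ± 1.25 and 5.51 ± 2.01 CPM, with −0.19 (SE 0.28, 95% interval −0.78 to 0.40; edgeR adjusted p = 0.808). Within batches 1, 2 and 3 the log2 differences were 0.57, −0.15 and −0.39 for Ank1 and 0.42, −0.66 and −0.22 for Epb42. Batch 1 thus went against the other batches for both genes.

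Protein 4.1 and p55, which bind each other and glycophorin C, had opposite signs, neither past the test. Epb41 was at 861 ± 62.0 CPM in the mutants, against 772 ± 66.6 in wild type with TMM scaling (SD, n = 3 each), a log2 fold change of 0.16 (SE 0.15, 95% interval −0.16 to 0.47; edgeR adjusted p = 0.683). Without scaling factors it was lower in the mutants, at 730 ± 137 against 921 ± 99.4 CPM (SD, n = 3 each), so the sign depended on the scaling. Mpp1 had 174, 242 and 315 counts in the mutants, against 279, 437 and 584 in wild type, of which only the count of wild-type library 1 was within the mutant range. Its TMM-scaled level was 18.9 ± 2.54 against 23.8 ± 8.09 CPM, with a log2 fold change of −0.33 (SE 0.23, 95% interval −0.83 to 0.17; edgeR adjusted p = 0.523). The wild-type libraries spread widely, with 14.6, 26.7 and 30.0 CPM. Without wild-type library 1, the library with pancreas transcripts, Mpp1 was called lower (log2 −0.58, edgeR adjusted p = 0.0459), in a fit where 2.58% of genes were lower. It moved the other way, to −0.17, −0.13 and −0.10, when mutant library 1, wild-type library 3 or batch 3 was left out (edgeR adjusted p = 0.861, 0.909 and 0.917).

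Adducin is a tetramer of an alpha and a beta subunit, and its transcripts differed in sign as well. Add1 had 110, 119 and 160 counts in the mutants, against 180, 214 and 240 in wild type, without overlap. In CPM of total counts Add1 also separated, as did 31.5% of all genes tested, lower in the mutants. TMM scaling brought the mutants to 10.1 ± 0.168 CPM and wild type to 11.6 ± 1.92 (SD, n = 3 each), with overlap, and the log2 fold change was −0.19 (SE 0.19, 95% interval −0.59 to 0.20; edgeR adjusted p = 0.683). Add2, the subunit limited mainly to red cells and brain, had 20, 22 and 24 counts in the mutants, against 26, 20 and 30 in wild type, which overlapped. Its TMM-scaled level was 1.75 ± 0.169 against 1.38 ± 0.160 CPM, higher in the mutants without overlap, as were 12.4% of all genes, and the log2 fold change was 0.33 (SE 0.29, 95% interval −0.27 to 0.93; edgeR adjusted p = 0.628). With total counts the sign of Add2 turned (log2 −0.17, edgeR adjusted p = 0.704).

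Dematin, which bundles actin, and tropomodulin, which caps the pointed filament ends, were measured on few counts. Dmtn had 21, 16 and 20 counts in the mutants, against 32, 28 and 53 in wild type. Tmod1 had 22, 20 and 29 against 34, 51 and 50. In both genes each wild-type count was above each mutant count. They also separated in CPM of total counts, as did 31.5% of all genes tested, lower in the mutants. With TMM scaling the groups overlapped, at 1.52 ± 0.352 against 2.04 ± 0.594 CPM for Dmtn and 1.86 ± 0.168 against 2.49 ± 0.670 for Tmod1 (SD, n = 3 each). Dmtn had a log2 fold change of −0.44 (SE 0.31, 95% interval −1.095 to 0.21; edgeR adjusted p = 0.520). It was 0.02 when batch 3 was left out (edgeR adjusted p = 0.988). That of Tmod1 was −0.42 (SE 0.29, 95% interval −1.02 to 0.19; edgeR adjusted p = 0.501). Leaving out batch 2 gave −0.13 and leaving out wild-type library 2 gave −0.22 (edgeR adjusted p = 0.924 and 0.803).

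**Figure D2:**
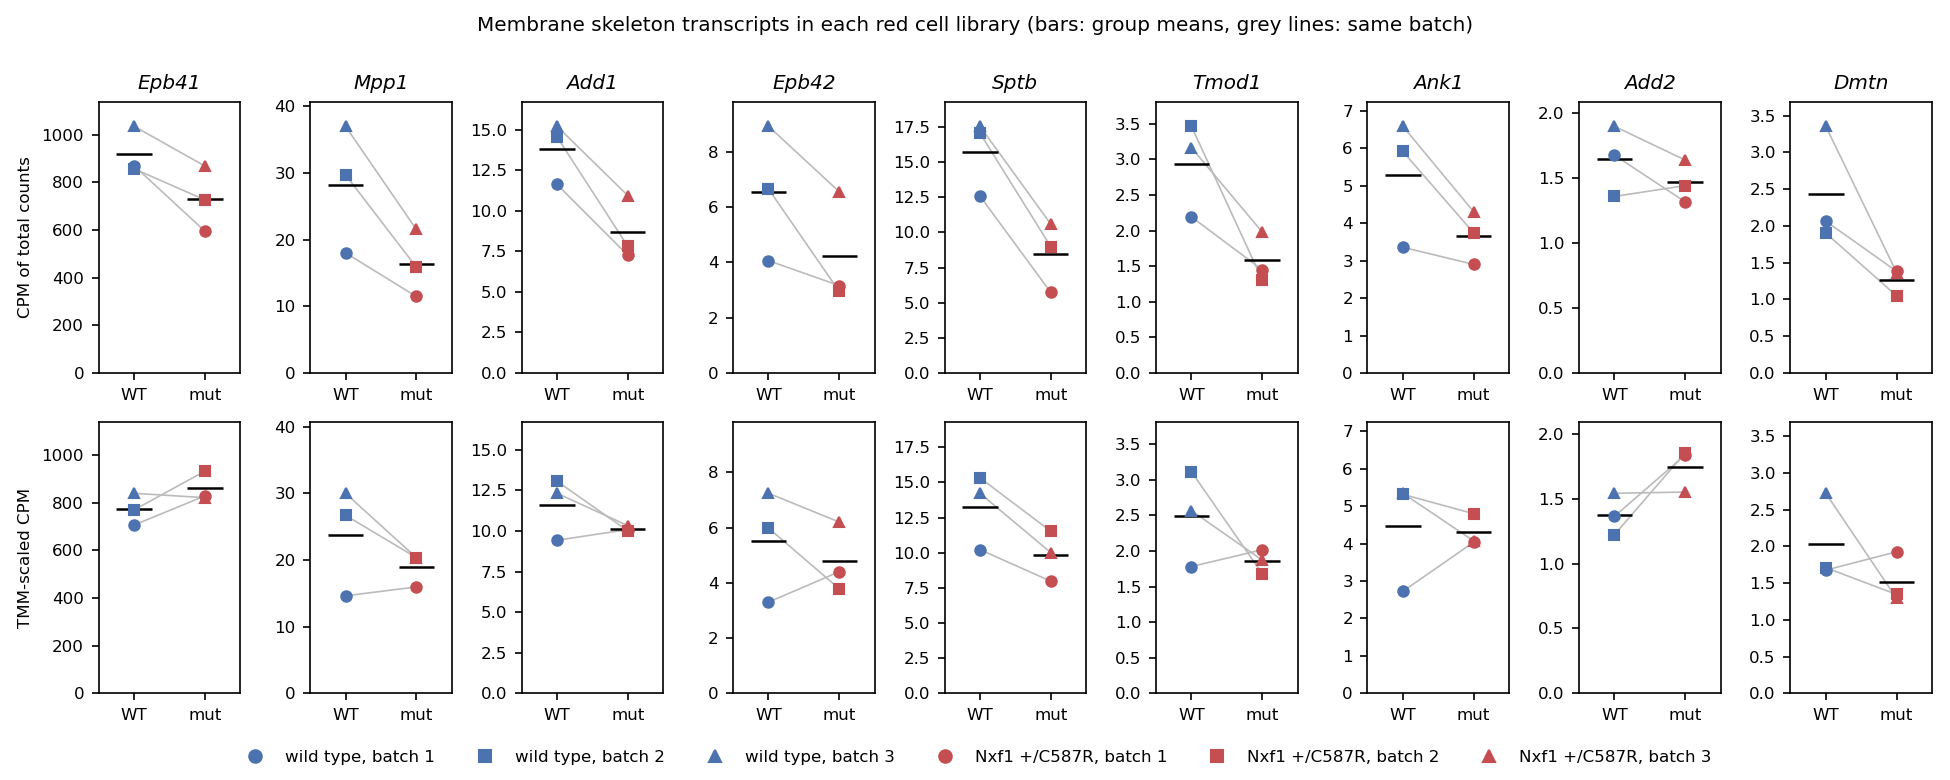
CPM of each transcript in wild-type (WT, blue) and Nxf1+/C587R (mut, red) libraries, with total counts in the upper row and TMM scaling in the lower row, black bars for group means, grey lines joining the libraries of 1 batch, and linear axes from 0. Sptb, Add1, Dmtn and Tmod1 separate the groups in the upper row and overlap in the lower row, where Add2 is higher in the mutants. Of all genes tested, 31.5% separate with the mutants lower in total-count CPM and 12.4% with the mutants higher after TMM scaling.

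The calls depended on the scaling. The TMM factor was 0.718, 0.779 and 1.06 in the mutants, against 1.23, 1.11 and 1.23 in wild type, so scaling raised the values of mutant libraries 1 and 2 and lowered those of the other 4. With total counts the log2 fold change of the median gene moved from −0.06 to −0.53, and 85.9% of all genes tested were below 0. All 9 transcripts were below 0 as well, from −0.95 for Dmtn to −0.17 for Add2, with a median of −0.67. Sptb alone was then called (log2 −0.90, edgeR adjusted p = 0.0254), where 8.68% of all genes were called lower. With total counts and batch as a term 4 of 9 were lower, Sptb, Epb41, Add1 and Mpp1, at −0.93, −0.35, −0.68 and −0.78 on the log2 scale (edgeR adjusted p 0.000212 to 0.0144), where 13.1% of all genes were lower. This last fit was chosen after seeing the data. In CPM of total counts 4 of 9 transcripts, Sptb, Add1, Dmtn and Tmod1, were lower in every mutant than in any wild-type library, as were 31.5% of all genes tested.

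**Figure D3:**
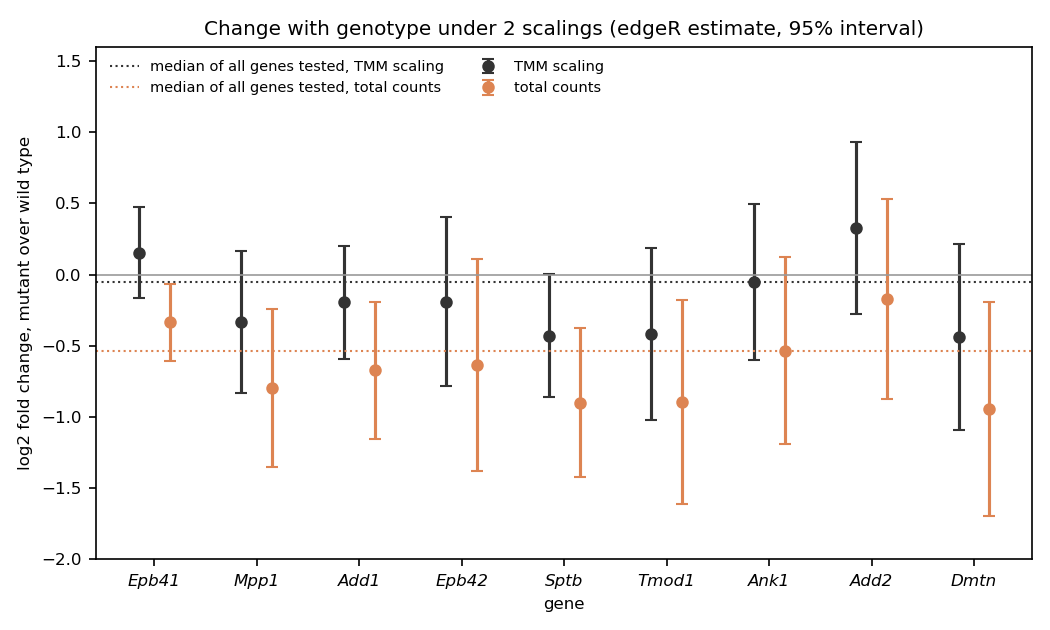
Log2 fold change of mutant over wild type for each transcript with its 95% interval (edgeR), with TMM scaling in black and total counts in orange, and dotted lines at the median of all genes tested. With TMM scaling all 9 intervals include 0, and with total counts all 9 estimates lie below 0, at or below the median of all genes, −0.53, for 7 of the 9. Of all genes tested, 85.9% lie below 0 with total counts.

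As a share of all counts the 9 transcripts summed to 0.0776% ± 0.0149 in the mutants, against 0.0997% ± 0.0114 in wild type (SD, n = 3 each). The single libraries were at 0.0630% (95% Wilson interval 0.0618 to 0.0643), 0.0770% and 0.0928% in the mutants and at 0.0925%, 0.0938% and 0.113% (0.111 to 0.115) in wild type. Mutant library 3 and wild-type library 1 overlapped. The mutant was lower in all 3 batches, but the exact two-sided permutation test gave p = 0.2 (n = 3 each), where 0.1 is the smallest value this design allows. Of non-globin counts the sum took 0.711% ± 0.126 and 0.872% ± 0.0679 (exact permutation p = 0.2, n = 3 each). With the hepatocyte and pancreas lists also taken out of the total, the difference was −0.160 percentage points in place of −0.161 (exact permutation p = 0.2, n = 3 each). Epb41 made up 93.1% of this sum. The other 8 together, counted apart after that had been seen, had 526, 658 and 862 counts in the mutants, against 861, 1186 and 1479 in wild type, or 0.00456% ± 0.00123 and 0.00766% ± 0.00194 of all counts (exact permutation p = 0.2, n = 3 each). Tfrc, the transferrin receptor that reticulocytes shed as they mature, was looked up after these values were seen. It had 100, 60 and 246 counts in the mutants, against 145, 577 and 706 in wild type, so that wild-type library 1 was low and mutant library 3 high here too, and its part in the sums was not tested.

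The makeup of the sum does not use scaling factors. Epb41 took 94.5%, 94.4% and 93.7% of member counts in the mutants, against 94.0%, 91.4% and 91.7% in wild type. Its mean share was 1.81 percentage points higher in the mutants, and higher in 3 of 3 batches (exact permutation p = 0.2, adjusted p = 0.3 over the 9 shares, n = 3 each). The shares of Sptb, Add1 and Tmod1 were lower in the mutants without overlap. They were 1.07% ± 0.142, 1.11% ± 0.0881 and 0.205% ± 0.0308 in the mutants, against 1.58% ± 0.231, 1.38% ± 0.152 and 0.296% ± 0.0676 in wild type (SD, n = 3 each). For each the exact permutation p was 0.1 (adjusted p = 0.3, n = 3 each), the smallest possible, so no share could pass. With Epb41 at 93.1% of the sum, each of these shares is close to a ratio to Epb41. How many other genes would separate in this measure was not counted. Among the 8 transcripts other than Epb41 every share overlapped between the groups (exact permutation p 0.2 to 0.9, adjusted p 0.533 to 0.9, n = 3 each). There Mpp1 took 35.5% ± 2.07 and 36.2% ± 3.58, Sptb 18.4% ± 2.18 and 20.8% ± 1.98, and Add1 19.2% ± 1.51 and 18.4% ± 2.36 in mutant and wild type.

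Within-library ratios between partners were compared for 7 pairs, of which 6 are reported here and several share a gene. The log2 ratio of Sptb to Ank1 was 1.18 ± 0.17 against 1.62 ± 0.26, that of Add1 to Add2 2.54 ± 0.17 against 3.07 ± 0.32, that of Dmtn to Add2 −0.22 ± 0.27 against 0.54 ± 0.26, and that of Tmod1 to Epb41 −8.86 ± 0.23 against −8.31 ± 0.34 (mutant against wild type, SD, n = 3 each). These 4 ratios were lower in the mutants in all 3 batches and did not overlap between the groups. Each reached only the smallest possible p of the exact permutation test, 0.1, and an adjusted p of 0.14 over the 7 ratios (n = 3 each), so none passed. The ratios of Add1 and Dmtn share Add2 and are not separate observations. How often other pairs of genes separate in this way was not counted. Differences in log2 ratio varied between batches, from −0.05 to −1.16 for Tmod1/Epb41 and from −0.11 to −0.92 for Sptb/Ank1. Epb41 to Mpp1 (5.52 ± 0.18 against 5.08 ± 0.44) and Epb42 to Ank1 (0.13 ± 0.47 against 0.30 ± 0.13) overlapped (exact permutation p = 0.3 and 0.7, adjusted p = 0.35 and 0.7, n = 3 each).

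**Figure D4:**
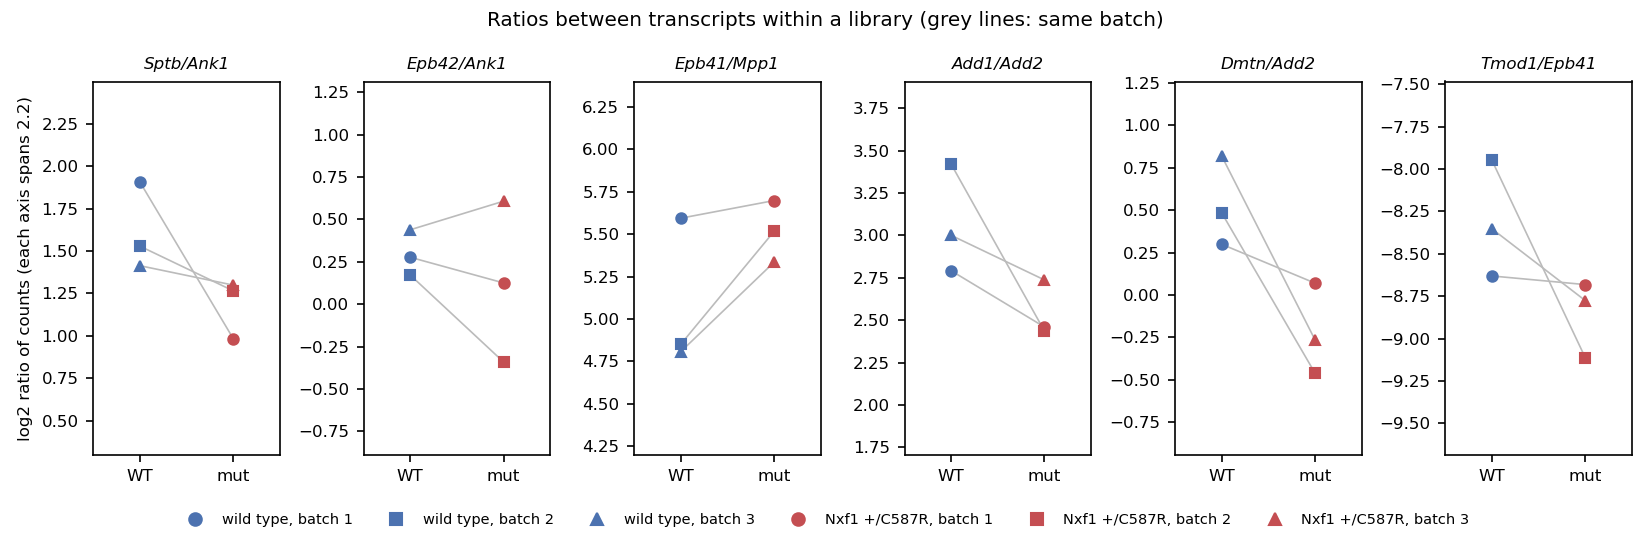
Log2 ratio of counts for 6 pairs of transcripts in wild-type (WT, blue) and Nxf1+/C587R (mut, red) libraries, with grey lines joining the libraries of 1 batch and axes of equal span. The mutant libraries lie below the wild-type libraries in 4 pairs, while Epb42/Ank1 and Epb41/Mpp1 overlap. Several pairs share a gene, and the share of other gene pairs that separate was not counted.

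The other genes of the structure were described by 4 lists. Of 16 other proteins of the spectrin and actin network, 14 were tested and 0 called, with a median log2 fold change of −0.04. Actb (beta actin), of the most abundant members, had −0.04 (edgeR adjusted p = 0.938). The smallest p was that of Actg1 (gamma actin), with 1, 4 and 10 counts in the mutants, against 27, 15 and 14 in wild type (log2 −1.39, SE 0.49, edgeR adjusted p = 0.115). Cfl1, the actin-severing protein cofilin, had −0.48 (edgeR adjusted p = 0.307), Tmod3, a relative of Tmod1, −0.65 (0.429) and Myl6, a myosin light chain, 0.14 (0.776). With total counts Actg1 alone of the 14 was called lower (log2 −1.84, edgeR adjusted p = 0.0437), where 8.68% of all genes were called lower.

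Of 19 integral or raft membrane proteins, 15 were tested and 0 called, with a median of −0.41, the lowest of the lists. Slc4a1, with 925, 1138 and 1447 counts in the mutants, against 1508, 1891 and 2251 in wild type, had −0.18 (SE 0.17, edgeR adjusted p = 0.668). Ermap, an erythroid membrane protein, Stom (stomatin), Gypc (glycophorin C, the membrane partner of protein 4.1 and p55) and Kcnn4 (a potassium channel) had −1.07, −0.92, −0.69 and −1.07 (edgeR adjusted p = 0.0522, 0.139, 0.305 and 0.390). Once batch was added to the model, Ermap, Stom and Kcnn4 were called lower (edgeR adjusted p = 0.00474, 0.0125 and 0.00967), in a fit where 2.09% of genes were lower. DESeq2 with batch as a term called 0 genes of this list. Without wild-type library 1 Ermap, Stom, Kcnn4 and Aqp1, a water channel, were called lower (edgeR adjusted p 0.000743 to 0.00885), where 2.58% of genes were lower. Leaving out any other single library called 0 genes of this list, in fits where only 8 to 26 of all genes were lower. Leaving out batch 1 called 4, where 36 of 2941 genes tested were lower.

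Of 23 relatives of the 9 genes that serve mainly in other tissues, 6 were tested and 0 called, with a median of −0.36. Mpp2, Add3, Sptan1, Ablim1 and Tmod3 were the members chosen by counts or p, with log2 fold changes from −0.87 for Ablim1 to 0.45 for Mpp2 (edgeR adjusted p 0.244 to 0.931). Add3 and Tmod3 are also in the list of skeleton proteins. Of 11 regulators by calcium, phosphorylation or proteolysis, 7 were tested and 0 called, with a median of −0.18. Capns1, the small calpain subunit, and Calm3, a calmodulin gene, were the most abundant and had 0.29 and −0.02 (edgeR adjusted p = 0.395 and 0.965). Prkcb (protein kinase C beta) and Cast (the calpain inhibitor) had −0.62 and −0.59 (edgeR adjusted p = 0.358 and 0.501).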

How the data were processed

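Polyadenylated RNA of purified erythrocytes was sequenced from 3 mutant and 3 wild-type mice. Per the labels' protocols, red cells were pelleted through Ficoll, checked for platelets, lymphocytes and nucleated cells by flow cytometry, and made into Illumina TruSeq RNA v2 libraries. The authors deposited raw counts per Entrez gene with a gene length, 1 file per library, per the file headers. CASAVA 1.8.2, Subread, featureCounts and the mm10 build are named, per the submitters' processing notes. The annotation, the strand setting and the handling of multi-mapped reads are not given in the sources used here. Symbols came from RefSeq (25275 genes) and GENCODE M21 (17), and genes without one, with 1.39% of counts, stayed in the tests.

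Genotypes were compared with edgeR 4.0.16 in R 4.3.3, using TMM scaling, filterByExpr and robust quasi-likelihood F tests. The model held genotype alone, and p-values were adjusted by Benjamini and Hochberg across every gene that passed the filter. Each standard error is the size of the log2 fold change over the root of its F. Levels per kilobase used the deposited lengths and total counts. Shares and ratios between genotypes were tested by exact permutation, two-sided, and Wilson intervals at 95% and floors cover counting error only. Alternatives were RLE scaling, total counts, globins removed, all genes kept, a minimum mean count of 50, limma-voom (limma 3.58.1), DESeq2 1.42.0, batch as a term, and leaving out each library or batch. Tests were run first on simulated data. Batch numbers in the labels pair the libraries, and the correlations of same-batch deviations across genes were −0.116, −0.0858 and −0.0443. Those of mutant and wild-type libraries of different batches ran from −0.0181 to 0.0877. Deviations were taken from the mean of each group, so these correlations are not independent of each other.

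The 9 genes and all lists were chosen with earlier results of these data known. The rule for named genes took the 9, Nxf1, for each of the 4 lists the 2 genes of most counts and up to 4 tested genes of smallest p, and for markers of other cells the 2 genes of most counts. Some genes that this rule names, and a ratio, are not reported here.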

Additional observations from a re-analysis of the deposited data

How the results depend on the processing

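No transcript was called higher under any alternative. Lower calls among the 9 numbered 0 in the reported fit, 1 with total counts, 4 with total counts and batch as a term, and 0 to 1 when a library or batch was left out, the 1 being Mpp1 without wild-type library 1. Of all genes tested, 8.68% were lower with total counts, 13.1% with total counts and batch as a term, and 2.58% without wild-type library 1. With the replicate block alone 0 of 9 were called (edgeR adjusted p 0.249 to 0.986). For sums, shares and ratios the block leaves the mean difference as it is by construction (−0.0222 percentage points for the share of all counts). An exact sign test over 3 batches cannot go below p = 0.25. The fits with DESeq2 or total counts and the block, and the shares without Epb41, were chosen after seeing the data.

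Signs turned for 5 genes. Ank1 was at 0.0024 with RLE scaling, 0.0022 with DESeq2, 0.014 with limma-voom, 0.0487 with DESeq2 and batch as a term, and −0.31 to 0.22 with libraries or batches left out. Epb41 was at −0.34 and −0.35 with total counts without and with batch, and Add2 at −0.17 and −0.16. With libraries or batches left out Epb42 ran from −0.45 to 0.0621 and Dmtn from −0.71 to 0.0208. The ranges were −0.32 to −0.06 for Add1, 0.10 to 0.33 for Epb41, 0.24 to 0.58 for Add2 and −0.62 to −0.13 for Tmod1. Sptb, Add1, Tmod1 and Mpp1 kept their sign in every fit that tested them, and the filter on a mean count of 50 dropped Add2, Dmtn and Tmod1. Shares of Ank1, Epb42 and Add1 were 1.31, 0.663 and 0.794 percentage points higher in the mutants when Epb41 was left out of the sum, in place of lower. The log2 ratio of Epb42 to Ank1 differed by −0.40 to 0.0707 with libraries or batches left out.

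Among all genes 30 were lower, and 19 with RLE scaling, 245 with total counts, 82 without a filter, 49 with a mean count of at least 50, 11 with DESeq2, 59 with the replicate block, 3 with DESeq2 and the block, 371 with total counts and the block, and 3 to 78 with libraries or batches left out. Higher genes numbered 169, and 382 without a filter and 66 with a mean count of at least 50. Lower calls in the membrane protein list were 0, and 3 with total counts, without a filter or with the replicate block, 1 with a mean count of at least 50, 7 with total counts and the block, 0 with DESeq2 with or without the block, and 0 to 4 with libraries or batches left out. In the skeleton protein list they were 1 with total counts and 4 with the block added, in the list of relatives 1 and 1, and in the list of regulators 1 with total counts and the block. In these fits 15 membrane proteins, 14 skeleton proteins, 6 relatives and 7 regulators were tested. Of all genes, 8.68% were lower with total counts, 13.1% with the block added and 2.09% with the replicate block alone. The 82 lower genes without a filter were of 16396 tested, and the 49 with a mean count of at least 50 were of 666. The cause of these shifts was not tested. Counts of 16 to 53 per library for Dmtn and 20 to 30 for Add2 limit what could be detected.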
